A study of Apis mellifera with 18 samples.

Results

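Of the 2845 assembled lncRNA transcripts listed under an annotated gene in honey bee brain libraries, 281 had a mean of at least 1 FPKM (fragments per kilobase of transcript, normalized to the mapped reads of the library) over 17 libraries and are described here with their host genes, the genes under whose names they are listed. They belong to a series of 16699 genes and lncRNA transcripts, of which 6760 are lncRNAs. The mean level over all libraries was used to choose them, so it is given as a description. The 3 transcripts just inside the limit were TCONS_00074803 at 1.01 FPKM, TCONS_00084677 at 1.01 FPKM and TCONS_00030533 at 1.00 FPKM, and the 3 just outside were TCONS_00047830 at 0.997 FPKM, TCONS_00055488 at 0.997 FPKM and TCONS_00009228 at 0.996 FPKM.

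Newly emerged worker bees (Apis mellifera) were caged and received 2 mL of 50% sucrose solution, with dinotefuran, a neonicotinoid insecticide, at 0.01 mg/L in the treated groups (DT) and without it in the control groups (C). The groups were DT_1d, C_1d, DT_5d, C_5d, DT_10d and C_10d, named for treatment and for age in days (1, 5 or 10), and each had 3 libraries of RNA from pooled brains. No strain, genotype or transgene is given in the labels, and nothing in them says whether libraries of a group came from separate cages, so p-values measure the spread between these pools only. For 6760 of 6760 lncRNAs, the file of DT_1d replicate 1 repeated the value of DT_10d replicate 1, whereas 0 gene values above 0 were equal between these libraries. That library was left out for lncRNAs and host genes, which left 2 libraries in DT_1d and 17 in all.

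Long noncoding RNAs are transcripts that are long by comparison with miRNAs and have no apparent protein product. Those that arise inside a protein-coding gene can lie in its introns, run antisense to it or share its exons, and some are splice or termination variants of the gene from which the coding frame has been lost. In insect brains lncRNAs are known for expression that is restricted in cell type and time. Listing under a gene name does not place a transcript inside that gene, and the positions printed below are those of the annotated host genes. The position and strand of each transcript relative to its host were not analysed here, so reads from a lncRNA and from overlapping exons of its host cannot be told apart by position.

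The values of the libraries differed by a common factor. Against the median library ratio of genes, this factor ran between 0.53 and 1.75, and C_1d replicate 1 (1.59) stood apart from C_1d replicate 2 (0.80) and replicate 3 (0.74). Levels are therefore given as deposited and, where a call depends on it, after division by this factor (scaled). In the supplementary material of the study, C_1d replicate 1 also had the lowest percentage of exonic reads. Its part in the values of that library was not tested. Of the marker lists, 8 of 11 neuronal genes were matched and none was listed at 0 in any library, with summed levels of 19.5 and 23.5 FPKM in DT_1d, 26.0 to 66.1 in C_1d, 20.5 to 33.4 in DT_5d, 37.7 to 103 in C_5d, 71.4 to 81.5 in DT_10d and 39.9 to 65.0 in C_10d. The 4 photoreceptor genes summed to between 182 and 1142 FPKM, and the 5 fat body genes, of which 1 was at 0 in some library, to between 7.77 and 48.0 FPKM. The 7 markers of the hypopharyngeal gland, a head gland that makes royal jelly proteins, were matched too and summed to 43306 and 43742 FPKM in DT_1d, 12215 to 51386 in C_1d, 27826 to 58942 in DT_5d, 12240 to 24618 in C_5d, 1330 to 2012 in DT_10d and 4315 to 9228 in C_10d. The part of gland or other tissue in the differences below was not tested. In bulk tissue, fewer cells of a type and less RNA per cell cannot be told apart.

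The 281 transcripts were listed under 225 host genes, all 225 of which are protein-coding in the annotation of Amel_HAv3.1. Most hosts (183) held 1 such transcript, 32 held 2, 8 held 3 and 2 held 5. Hosts on the 16 linkage groups numbered 222, with 32 on linkage group 1 (14.2% of hosts, against 12.8% of all genes), and 3 hosts lay on unplaced scaffolds. Host genes were long, with a median of 13299 bp, against 10839.5 bp for the 1330 genes that held only lncRNAs under the limit and 3987 bp for the 9935 genes with a position.

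In every library, each lncRNA value was at most the value of its host gene, within 0.001 FPKM. This held for all 281 transcripts and for all 2845 assembled lncRNAs listed under genes. With a further small allowance in proportion to the host value, it held for the sum of lncRNAs under each of 1555 hosts. A host value therefore contains the lncRNA value, and the ratio of the pair is reported as the share of the host. In the library left out, 67 of the 281 lncRNA values were above the value of their own host gene and 0 were above the host value of DT_10d replicate 1, which is the library whose lncRNA values it repeats.

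The share, computed from mean levels, had a median of 15.4% (quartiles 8.03% and 31.0%) and ran from 0.664% to 100%. The other 2564 assembled lncRNAs listed under genes had a median of 3.37%. By group, the median share of the 281 transcripts lay between 14.2% in C_5d and 15.9% in DT_10d. A share of at least 90% was reached by 13 transcripts, and 27 were below 5%.

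**Figure D1:**
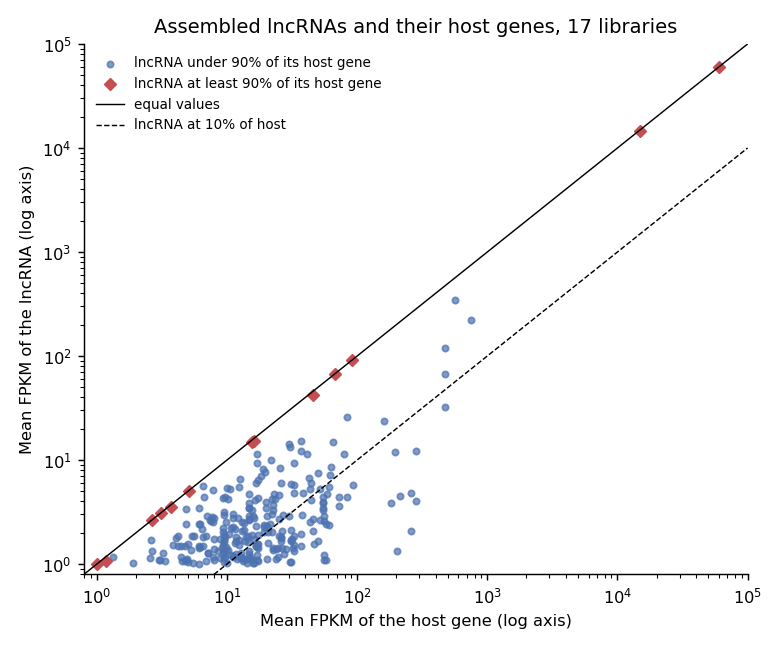
Mean FPKM of each of the 281 lncRNAs (vertical log axis) against the mean FPKM of its host gene (horizontal log axis) over 17 libraries. No point lies above the line of equal values, 13 transcripts (diamonds) reach at least 90% of the host, and 91 are below the dashed line at 10%.

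Levels were unevenly distributed. The median of the means was 2.07 FPKM (quartiles 1.39 and 4.15), 52 transcripts reached 5 FPKM, 25 reached 10 and 5 reached 100. Together, TCONS_00024915 and TCONS_00086477 held between 93.9% and 98.8% of the summed FPKM of all 281 transcripts in each library.

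TCONS_00024915, listed under LOC408790 (linkage group 4, gene positions 11507395 to 11511869), had 85662 and 81624 FPKM in DT_1d, against 34982, 65421 and 68882 in C_1d. At 5 d it had 76765, 85850 and 56883 FPKM in DT_5d, against 52290, 53980 and 19959 in C_5d, and at 10 d 59113, 51034 and 40013 in DT_10d, against 64798, 75196 and 47668 in C_10d. DT and C libraries overlapped at 10 d but not at 1 d or 5 d, and none of these differences passed the test (limma, log2 difference 0.63, 0.91 and -0.31, adjusted p 0.46, 0.139 and 0.8 at 1, 5 and 10 d, and 1.22, 1.68 and -0.62, adjusted p 0.942, 0.82 and 0.969, after scaling). The assembled locus, as the supplementary material of the study places it, reaches beyond the annotated gene on both sides. Its share of the gene was at least 99.9% in all 17 libraries, so the gene value was almost wholly the lncRNA value.

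TCONS_00086477, in LOC113219351 on an unplaced scaffold, had between 10837 and 21138 FPKM in 16 libraries and 131 FPKM in DT_5d replicate 1. The host was at 139 FPKM in that library, and the share stayed between 93.9% and 96.8%. In the same library TCONS_00086519, in LOC113219358 on another unplaced scaffold, had its highest value, 3204 FPKM of a host value of 3245. TCONS_00086519 had 245 FPKM in DT_5d replicate 2 and 295 in DT_10d replicate 1, and was listed at 0 in the other 14 libraries, where its host ran between 203 and 1018 FPKM. DT_5d replicate 1 alone supplied 85.6% of the summed level of a transcript that ranks among the 10 highest. In the supplementary material of the study, this library had the highest percentage of uniquely mapped reads. The part of mapping in these values was not tested.

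TCONS_00028179, in LOC551541, had 226 and 224 FPKM in DT_1d, against 339, 244 and 246 in C_1d, and 559, 494 and 529 in DT_10d, against 562, 302.5 and 460.3 in C_10d. Its share held between 55.6% and 67.3% over all libraries. TCONS_00043595 in LOC725668 (39.7 to 136 FPKM) and TCONS_00025724 in LOC102655287 (4.13 to 158 FPKM) took at least 98.3% of their hosts in every library, and TCONS_00009612 in LOC102656224 between 89.2% and 97.2%. TCONS_00086353 equalled its host, LOC113219343, in all 17 libraries, so for this pair the gene value has no other component. TCONS_00086353 is named here because of its values.

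The level of many transcripts changed between groups. A mean of at least 1 FPKM in all 6 groups was found for 119 transcripts, and in 1 group only for 7. By group, 153 transcripts had such a mean in DT_1d, 216 in C_1d, 190 in DT_5d, 251 in C_5d, 265 in DT_10d and 246 in C_10d. These counts are not scaled, and the library factor was 0.62 and 0.68 in DT_1d and 1.41 to 1.48 in DT_10d. The part of this factor in the counts was not tested. Because the limit was set on the overall mean, a transcript low in some groups had to be higher in others. The 159 tested transcripts with a mean under 1 FPKM in some group supplied 3 of the 4 calls in level described below for DT_10d against C_10d, 2 of 2 for C_10d against C_1d and 78 of 139 for DT_10d against DT_1d. The 119 with a mean of at least 1 FPKM in all groups gave 1, 0 and 61 calls in these comparisons.

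At least 1 library listed a value of 0 for 42 transcripts, while their hosts were never below 0.28 FPKM. For 40 of these 42, libraries of the same group held both a 0 and a value of at least 1 FPKM. A single library held over 50% of the summed level of 6 transcripts, TCONS_00086519, TCONS_00007276, TCONS_00032758, TCONS_00034585, TCONS_00015896 and TCONS_00079839, named after their values were seen. TCONS_00007276, TCONS_00032758 and TCONS_00015896 did not reach 0.1 FPKM in 3 libraries and were not tested, which left 278.

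Among the 239 transcripts above 0 in all libraries, the highest share was a median of 3.14 times the lowest. It was less than 2 times the lowest for 50 transcripts and more than 10 times for 43. Replicates of a group differed by a median SD of 0.37 on the log2 scale. The highest and the lowest of the 6 group means lay a median of 0.88 apart. An SD and a range are unlike measures, so these values do not set differences between groups against replicate spread. After scaling, 246 of 281 lncRNAs varied more than their hosts over the 17 libraries, with a median SD of log2 levels of 0.63 for lncRNAs and 0.33 for hosts. The lncRNAs were also lower, with a median mean level of 2.07 FPKM, against 14.8 for hosts. The part of low level in their spread was not tested.

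Over the same 17 libraries the scaled log2 level of a lncRNA and of its host had a median correlation of 0.59 (281 pairs, quartiles 0.28 and 0.83). Both values come from the same library, and the host value includes the lncRNA. With the lncRNAs subtracted from the host the median was 0.18 over 280 pairs, and 99 of these were below 0. These figures are descriptive.

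Differences in level were tested with limma on log2(FPKM + 0.1) over all 13727 genes and lncRNA transcripts that passed the filter, with a call at an adjusted p under 0.05 and a log2 difference beyond 1. At 1 d, 0 of 278 transcripts were called between DT_1d and C_1d, against 0.0146% of all features, and 22 had an unadjusted p under 0.05 with a log2 difference beyond 1. Scaled values (background 0.051%) and quantile normalization also gave 0. The median log2 difference was -0.49 for the 278 transcripts and -0.57 for all genes, and 0.04 for the transcripts after scaling.

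At 5 d, 0 transcripts were called between DT_5d and C_5d, against 0.0656% of all features. By the unadjusted criterion there were 74, and 44 after scaling. The median log2 difference was -0.61 for the 278 transcripts and -0.63 for all features. Without C_1d replicate 1, a library outside this comparison that enters the common estimate of spread, the count of calls was 64. Without C_5d replicate 2 it was 43. The share over all features was not computed for these counts or the unadjusted ones. After scaling, 4 transcripts rose (background 0.503% in either direction and 0.415% higher), namely TCONS_00006937 in Grd, which encodes a subunit of a ligand-gated chloride channel, TCONS_00063306 in LOC113219121, TCONS_00061657 in LOC100578581 and TCONS_00008533 in LOC412436. They were named after their values were seen.

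The Grd transcript TCONS_00006937 had 5.64, 9.20 and 11.8 FPKM in DT_5d, against 3.37, 4.13 and 3.65 in C_5d, without overlap. Its host had 29.7, 27.2 and 38.9 FPKM in DT_5d, against 24.6, 27.6 and 36.9 in C_5d, with overlap. After scaling, the lncRNA had 7.35, 17.3 and 14.8 FPKM in DT_5d, against 3.35, 4.49 and 2.09 in C_5d, and Grd had 38.7, 51.1 and 48.8 in DT_5d, against 24.4, 30.0 and 21.1 in C_5d. On that scale neither overlapped. The scaled log2 difference was 1.93 (adjusted p = 0.046) for the lncRNA and 0.88 (adjusted p = 0.0894) for Grd, and the deposited difference of the lncRNA was 1.18 (SE 0.50, adjusted p = 0.111).

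At 10 d, 4 transcripts were called between DT_10d and C_10d, 3 of them higher and 1 lower, against 0.444% of all features, 0.342% higher and 0.102% lower, and no host was called. TCONS_00081105, in LOC412795 (linkage group 15, positions 8088731 to 8201178), had 1.98, 1.58 and 1.43 FPKM in DT_10d, against 0.246, 0.290 and 0.548 in C_10d. The host had 11.7, 9.79 and 9.01 FPKM in DT_10d, against 8.54, 5.62 and 9.98 in C_10d. The lncRNA libraries did not overlap and the host libraries did.

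Its log2 difference was 1.97 (SE 0.38, adjusted p = 0.0298), against 0.37 (adjusted p = 0.729) for the host. As a share of the gene it took 16.9%, 16.1% and 15.8% in DT_10d, against 2.88%, 5.17% and 5.49% in C_10d (log2 ratio 1.61, SE 0.25, adjusted p = 0.0102). This was the 1 ratio called at 10 d, against 0.252% of all assembled lncRNAs listed under genes, 0.126% of them higher. With a pseudocount of 1 the count of ratios was 0, and it was also 0 without DT_10d replicate 1 or replicate 2.

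Over the ages, TCONS_00081105 was highest at 5 d, with shares of 46.3%, 34.0% and 36.5% in DT_5d, against 30.1%, 22.9% and 18.6% in C_5d, and it took 13% and 12.6% in DT_1d, against 16.6%, 16.7% and 16.1% in C_1d. It was also the 1 ratio called between C_10d and C_1d (log2 ratio -1.65, SE 0.25, adjusted p = 0.0221, against 0.168% of assembled lncRNAs listed under genes, 0.0839% lower), where the ratio fell. The interaction of treatment and age, 10 d against 1 d, was 2.88 in level (SE 0.57, adjusted p = 0.0751) and 2.03 after scaling (adjusted p = 0.0421), which was the 1 scaled call (background 0.204%, 0.117% higher). In deposited values the interaction called 0 transcripts, against 0.0801% of features, with 81 by the unadjusted criterion, and quantile normalization gave 0. The ratio gave 0 too, against 0% of assembled lncRNAs listed under genes, with 14 by the unadjusted criterion. The contrasts at 10 d and between C_10d and C_1d share the C_10d libraries.

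The other transcripts higher in DT_10d were TCONS_00047848 and TCONS_00076848. TCONS_00047848, in LOC727647, had 6.70, 6.11 and 6.70 FPKM in DT_10d, against 2.30, 0.550 and 1.51 in C_10d, and its host had 44.7, 34.9 and 40.2 FPKM in DT_10d, against 22.0, 12.6 and 16.7 in C_10d. Neither pair overlapped, and the log2 difference was 2.28 (SE 0.44, adjusted p = 0.031) for the lncRNA and 1.25 (adjusted p = 0.0758) for the host, whose scaled difference was 0.95 (adjusted p = 0.0148).

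TCONS_00076848, in LOC727232, had 1.77, 2.25 and 3.04 FPKM in DT_10d, against 0.636, 0.365 and 0.467 in C_10d, a log2 difference of 2.05 (SE 0.34, adjusted p = 0.0123). After scaling it was 1.73 (adjusted p = 0.0542), which did not pass the threshold. Its host had 10.1, 8.67 and 10.9 FPKM in DT_10d, against 7.66, 5.46 and 8.16 in C_10d (log2 0.49, adjusted p = 0.649). With scaling 6 transcripts were called at 10 d, 5 higher and 1 lower (background 0.648%, 0.401% higher and 0.248% lower), including TCONS_00086353, TCONS_00061657 and TCONS_00076228, chosen after their values were seen. The count at 10 d was 0 without C_10d replicate 2, DT_10d replicate 2 or DT_10d replicate 3, 2 without DT_10d replicate 1 and 10 without C_1d replicate 1.

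The transcript lower in DT_10d, TCONS_00068689, is 1 of 4 assembled lncRNAs of LOC107965323 (linkage group 12, positions 8517495 to 8520261). It was listed at 0 in all 3 DT_10d libraries and had 9.93, 4.86 and 10.3 FPKM in C_10d. It was listed at 0 in every other library except C_5d replicate 2, at 9.68 FPKM. It reached the limit on the mean and the filter of the test through the C_10d libraries, so its calls against DT_10d and C_1d, which share those libraries, are given as a description with no p-value or fold change.

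Other transcripts of the gene were present where TCONS_00068689 was not. TCONS_00068688 had 5.88 and 4.49 FPKM in DT_10d replicates 1 and 3, and TCONS_00068687 had 6.69 FPKM in DT_10d replicate 2, where TCONS_00068688 was at 0. In C_5d replicate 2, the library with TCONS_00068689, TCONS_00068688 was at 0, whereas it had 8.59 and 13.7 FPKM in the other C_5d libraries. The summed lncRNAs of the gene had 7.24, 6.69 and 5.81 FPKM in DT_10d, against 14.3, 8.09 and 15.7 in C_10d, or 31.0%, 35.3% and 28.9% of the host in DT_10d, against 39.6%, 43.1% and 48.9% in C_10d. Summed FPKM and summed share were lower in DT_10d than in C_10d in every library, but neither sum was listed at 0. Most of each C_10d sum was TCONS_00068689, so the direction of both rests on the libraries through which that transcript was chosen. The sums were not tested.

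**Figure D2:**
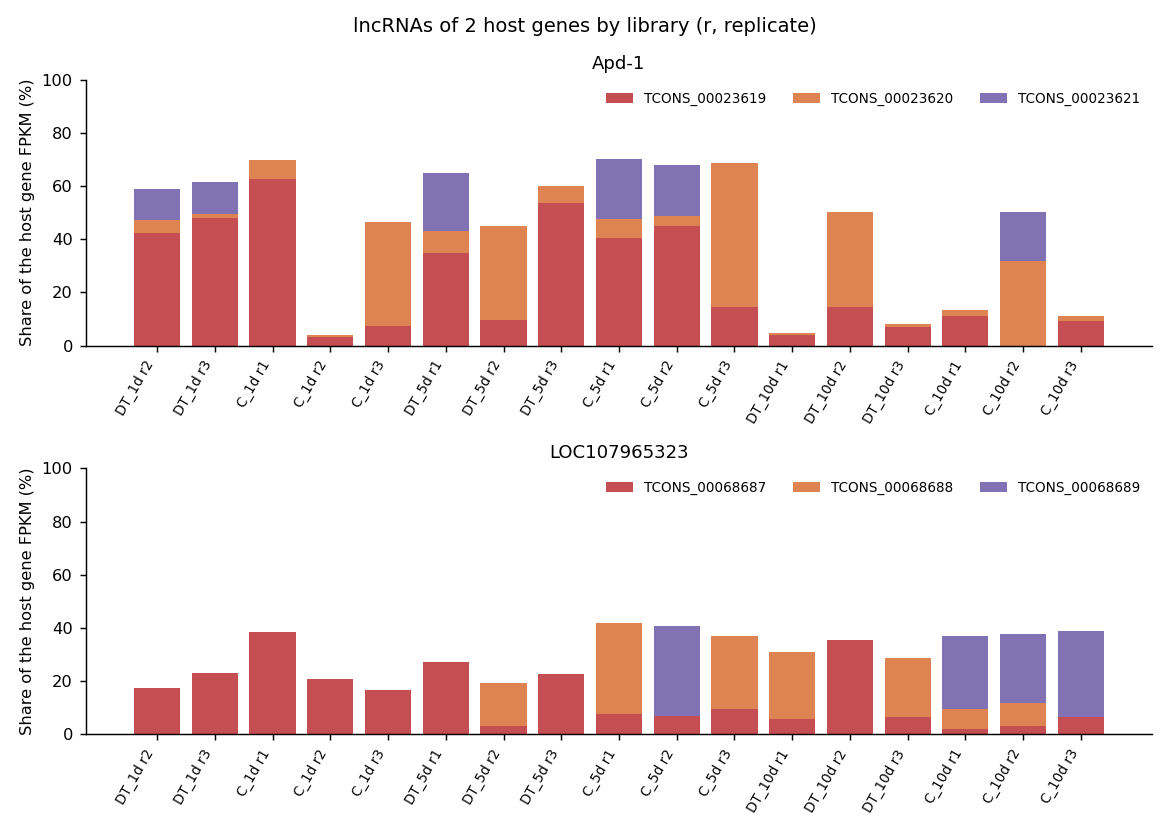
Share of the host gene FPKM (vertical axis, %) taken by lncRNAs of Apd-1 (upper panel) and of LOC107965323 (lower panel) in each of 17 libraries, stacked. Of the 4 assembled lncRNAs of LOC107965323, only the 3 above the limit on the mean are drawn. For LOC107965323 a different transcript carries most of the share in replicates of 1 group, and TCONS_00068689 appears in C_5d replicate 2 and the C_10d libraries only.

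Apd-1 encodes an apidermin, a structural protein of the cuticle, and lies on linkage group 4 at positions 4486092 to 4488233. Listed under it were 3 of the 10 highest transcripts, TCONS_00023619, TCONS_00023620 and TCONS_00023621. Their summed share was 59.1% and 61.6% in DT_1d, 69.7%, 3.85% and 46.5% in C_1d, 64.9%, 45.1% and 59.9% in DT_5d, 70.3%, 68.1% and 68.8% in C_5d, 4.80%, 50.3% and 8.26% in DT_10d, and 13.5%, 50.1% and 11.0% in C_10d. Replicates of C_1d, DT_10d and C_10d thus differed among themselves more than 4 times. In the supplementary material of the study, the assembled locus of TCONS_00023619 and TCONS_00023620 runs past the end of Apd-1. It covers the interval given there for Apd-2, another apidermin gene. The part of Apd-2 in these values was not tested.

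TCONS_00023621 was listed at 0 in 11 libraries, among them all of C_1d and DT_10d, and had 93.4 and 85.2 FPKM in DT_1d. TCONS_00023619 had 13, 18.3 and 9.10 FPKM in DT_10d, against 332 and 336 in DT_1d, a log2 difference of -4.68 (SE 1.60, adjusted p = 0.0245), and Apd-1 itself had 335, 124 and 131 FPKM in DT_10d, against 784 and 698 in DT_1d (log2 -2.07, adjusted p = 0.0049). Both fell with age without overlap. TCONS_00023620 did not pass the test (log2 -1.50, adjusted p = 0.435) and ranged from 1.74 to 366 FPKM over the series. The call on TCONS_00023619 was lost without filter, with a pseudocount of 0.01, with quantile normalization, and without DT_1d replicate 2, DT_1d replicate 3 or DT_10d replicate 3.

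Over all ages together, 0 transcripts were called between DT and C, against 0% of all features, with 12 by the unadjusted criterion, and scaled values (background 0.051%) and quantile normalization gave 0 as well.

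Between C_10d and C_1d, 2 transcripts were called, 1 higher and 1 lower, against 0.452% of features, 0.0656% higher and 0.386% lower. The higher one was TCONS_00068689, whose call the choice of members fixed, as described above. TCONS_00083944, in LOC726935, had 0.389, 0.160 and 0.895 FPKM in C_10d, against 1.24, 4.25 and 3.68 in C_1d, and fell by 2.48 on the log2 scale (SE 0.51, adjusted p = 0.0349), whereas the host had 31.0, 36.3 and 55.8 FPKM in C_10d, against 41.5, 34.2 and 22.0 in C_1d (log2 0.34, adjusted p = 0.802). Without C_1d replicate 1 the count was 40, and without C_1d replicate 2 it was 0, with no share over all features computed for either. After scaling 6 were called, 2 higher and 4 lower (background 0.539%, 0.146% higher and 0.393% lower).

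Between DT_10d and DT_1d, 139 transcripts were called, 128 higher and 11 lower, which is 50% of those tested, against 47.7% of all features, 45.8% higher and 1.97% lower. The median log2 difference was 1.26 for the transcripts and 1.10 for all genes, and 0.22 and 0.01 after scaling. With scaled values 57 transcripts were called, 35 higher and 22 lower, or 20.5% of those tested, against 13.4% of all features, 6.7% higher and 6.72% lower. Deposited and scaled values shared 46 called transcripts. The DT_1d group rests on 2 libraries. Without DT_1d replicate 2 the count in deposited values was 12, and without DT_1d replicate 3 it was 76.

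Host and lncRNA were compared call by call. In deposited values 121 of the 139 called transcripts had a called host, and in scaled values 23 of 57. Of all 225 hosts, 147 were called in deposited and 34 in scaled values. Over all genes and lncRNA transcripts together, 47.7% and 13.4% were called. The share over genes alone was not computed, so these counts do not set hosts apart from other genes. In deposited values another 66 transcripts that were not called had a called host. A host value includes that of its lncRNA, so the calls of a pair are not independent. For 5 of the scaled calls the host difference had the opposite sign. Called transcripts with named hosts (all named after their values were seen) included TCONS_00080348 in Wat, known as a worker-enriched antennal transcript (log2 -2.44, adjusted p = 0.00154), TCONS_00069257 in SIFR, the receptor of the neuropeptide SIFamide, and TCONS_00008594 in Tret1, a trehalose transporter (log2 2.38, adjusted p = 0.00228). Those in Wat and SIFR fell and that in Tret1 rose, in deposited and in scaled values.

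**Figure D3:**
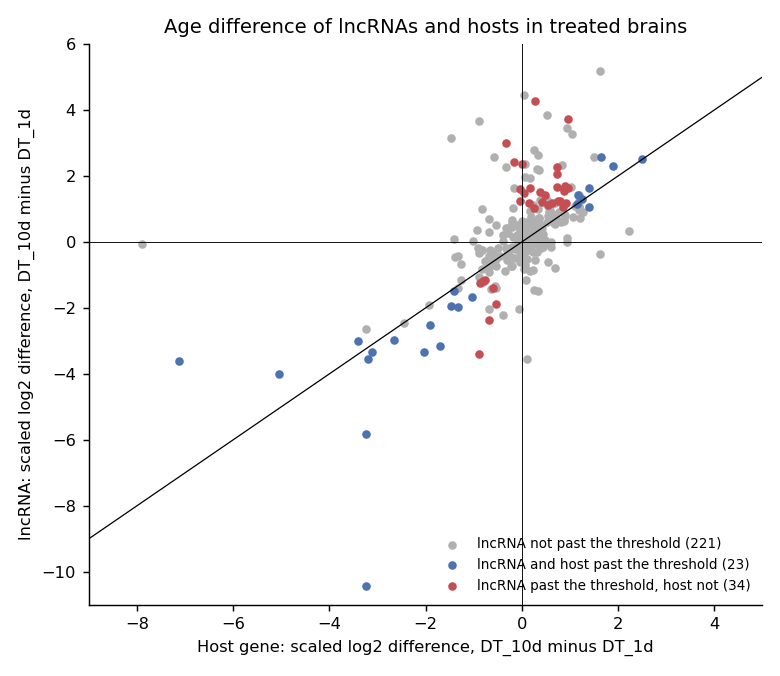
Scaled log2 difference, DT_10d minus DT_1d, of 278 lncRNAs (vertical axis) against that of their host genes (horizontal axis), with the diagonal as the line of equal differences. Of the 57 called lncRNAs, 23 have a called host (blue) and 34 do not (red), and the point at the far left is TCONS_00064381, whose host Mrjp7 has a scaled difference of -7.90 at a lncRNA difference of -0.06.

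SIFR is one of the hosts whose value lay mostly in a lncRNA, at 94.1% of the mean. TCONS_00069257 had 41.2 and 27.1 FPKM in DT_1d, against 5.21, 30.8 and 37.4 in C_1d, 23.0, 19.3 and 16.9 in DT_5d, against 6.19, 9.51 and 5.70 in C_5d, and 6.67, 9.26 and 6.09 in DT_10d, against 5.13, 3.39 and 6.55 in C_10d. C_1d replicate 1 lay among the libraries of 10 d, and DT_5d did not overlap C_5d. Between DT_10d and DT_1d the lncRNA fell by 2.19 on the log2 scale (SE 0.58, adjusted p = 0.0099) and SIFR by 1.95 (adjusted p = 0.0109). At 1 d the difference between DT and C was 0.87 (SE 0.58, adjusted p = 0.454).

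The ratio of lncRNA to host was called for 10 transcripts between DT_10d and DT_1d, 7 higher and 3 lower, against 3.86% of assembled lncRNAs listed under genes, 1.8% higher and 2.05% lower. Mrjp7, which encodes a major royal jelly protein, is on linkage group 11 at positions 2307856 to 2311141, and its transcript TCONS_00064381 had the largest difference of the 10. The lncRNA had 2.68, 2.13 and 2.35 FPKM in DT_10d, against 1.17 and 1.06 in DT_1d, while Mrjp7 had 7.19, 6.20 and 7.17 FPKM in DT_10d, against 834 and 667 in DT_1d. The share was 37.3%, 34.4% and 32.7% in DT_10d, against 0.141% and 0.158% in DT_1d, and the log2 ratio rose by 7.78 (SE 1.43, adjusted p = 0.0145).

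Level alone gave a log2 difference of 1.03 (SE 0.50, adjusted p = 0.0871) for this lncRNA and -6.75 (adjusted p = 0.00193) for Mrjp7. In the control groups Mrjp7 had 3.87, 1.98 and 5.80 FPKM in C_10d, against 9.35, 684 and 698 in C_1d, and the lncRNA had 1.45, 0.708 and 1.66 FPKM in C_10d, against 1.78, 1.05 and 1.11 in C_1d. At 5 d Mrjp7 had 231, 98.8 and 149 FPKM in DT_5d, against 12, 10.5 and 15.3 in C_5d, and the lncRNA 0.976, 0.640 and 1.06 in DT_5d, against 0.649, 0.473 and 1.92 in C_5d. Mrjp7 thus spanned 1.98 to 834 FPKM while the lncRNA stayed between 0.473 and 2.68. Mrjp7 is itself one of the 7 gland markers, and the part of gland tissue in its level was not tested.

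**Figure D4:**
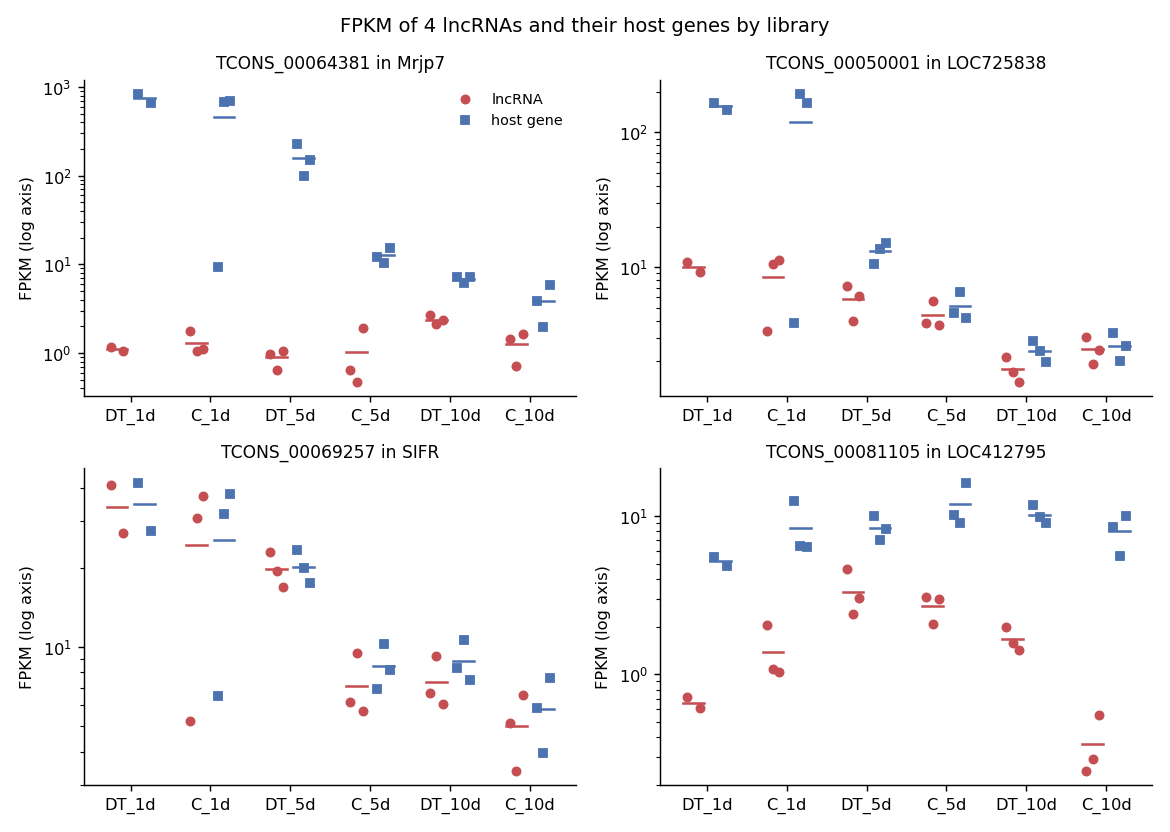
FPKM (log axes) of 4 lncRNAs (red circles) and their host genes (blue squares) in each library by group, with bars at the group means. Mrjp7 spans 1.98 to 834 FPKM over a lncRNA between 0.473 and 2.68. TCONS_00050001 comes within reach of its host in DT_10d and in C_1d replicate 1, and TCONS_00069257 follows SIFR. TCONS_00081105 is at 0.246 to 0.548 FPKM in C_10d while its host overlaps DT_10d.

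TCONS_00050001, in LOC725838, had 2.15, 1.66 and 1.41 FPKM in DT_10d, against 10.9 and 9.17 in DT_1d, while its host had 2.85, 2.37 and 1.98 FPKM in DT_10d, against 166 and 147 in DT_1d. Its share was 75.6%, 70.2% and 71.2% in DT_10d, against 6.58% and 6.25% in DT_1d, and the log2 ratio rose by 3.50 (SE 0.81, adjusted p = 0.0329). C_1d replicate 1 took 86.8%, while replicates 2 and 3 of C_1d took 5.49% and 6.92%, so this library again lay with the older ones. Both lncRNA and host fell between DT_10d and DT_1d (log2 -2.48 and -5.98, adjusted p 0.00291 and 0.00188).

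TCONS_00037072, in LOC552342, had 11.2, 6.23 and 7.08 FPKM in DT_10d, against 0.594 and 0.620 in DT_1d, and took 16.0%, 12.8% and 11.3% of the host in DT_10d, against 2.07% and 1.96% in DT_1d (log2 ratio 2.52, SE 0.50, adjusted p = 0.0185). Its host did not pass the test (log2 0.99, adjusted p = 0.0763).

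The 3 ratios that fell were of TCONS_00068557, TCONS_00030422 and TCONS_00002358. TCONS_00068557 is in FAR1, which encodes a fatty acyl-CoA reductase. Its level was 1.64, 2.1 and 1.95 FPKM in DT_10d, against 0.518 and 0.829 in DT_1d, with a log2 difference of 1.39 (adjusted p = 0.0123) that was 0.33 after scaling (adjusted p = 0.337). FAR1 rose, with 125, 144 and 154 FPKM in DT_10d, against 12.5 and 14.1 in DT_1d (log2 3.39, adjusted p = 0.000914, and 2.23 after scaling). The log2 ratio was -2.0 (SE 0.50, adjusted p = 0.0398).

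TCONS_00030422, in LOC411116, took 35.6%, 23.4% and 38.1% of its host in DT_10d, against 83.5% and 84.7% in DT_1d (log2 ratio -1.34, SE 0.21, adjusted p = 0.00496). TCONS_00002358, in LOC552094, took 26.3%, 26.8% and 19.8% in DT_10d, against 54.0% and 51.2% in DT_1d (log2 ratio -1.12, SE 0.21, adjusted p = 0.0155). Its level was 2.76, 2.85 and 2.22 FPKM in DT_10d, against 2.13 and 2.15 in DT_1d (log2 0.27, adjusted p = 0.553), and 1.96, 1.94 and 1.5 in DT_10d, against 3.46 and 3.14 in DT_1d, after scaling (log2 -0.85, adjusted p = 0.0114). The host difference was 1.38 (adjusted p = 0.0153), or 0.24 after scaling (adjusted p = 0.317), so which of the pair moved depends on the scale. No library of 1 group overlapped the other in either share. Without DT_1d replicate 2 the count of ratios was 1, with the replicate number as a block 5, with a pseudocount of 1 20, and with the host value less its lncRNAs as denominator 19.

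Among the largest increases in level, TCONS_00080266 in LOC411569, TCONS_00080081 in LOC413034 and TCONS_00003547 in LOC100577019 were listed at 0 in both DT_1d libraries. TCONS_00003547 had 2.34, 2.35 and 3.35 FPKM in DT_10d (adjusted p = 0.0112), and its host had 7.20, 6.77 and 8.0 FPKM in DT_10d, against 2.78 and 2.64 in DT_1d (log2 1.4, adjusted p = 0.0206, and 0.26 after scaling, adjusted p = 0.434). TCONS_00080081 had 2.74, 2.98 and 3.36 FPKM in DT_10d. Its mean of 1.34 FPKM over 17 libraries reached the limit of 1 through these DT_10d libraries. Its call is therefore given as a description with no p-value. TCONS_00080266 had 34.1, 29.3 and 0 FPKM in DT_10d (adjusted p = 0.0449). For TCONS_00080266, a DT_10d library was thus at 0 too. After scaling, the adjusted p was 0.0309 for TCONS_00003547 and 0.11 for TCONS_00080266.

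TCONS_00061230, in LOC552154, had 1.53, 1.82 and 1.24 FPKM in DT_10d, against 12 and 11.5 in DT_1d, and fell by 2.88 on the log2 scale (SE 0.72, adjusted p = 0.00803). LOC552154 had 19.0, 17.7 and 13.6 FPKM in DT_10d, against 255 and 242 in DT_1d, and fell by 3.90 (adjusted p = 0.00193). The difference of the log2 ratio was 1.02 (SE 0.32, adjusted p = 0.0968).

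At 5 d the ratio was called for 2 transcripts, both higher in DT_5d, against 0.922% of assembled lncRNAs listed under genes, all of those higher. TCONS_00058134, in LOC726427, took 35.1%, 34.4% and 40.5% of its host in DT_5d, against 10.5%, 8.84% and 5.41% in C_5d (log2 ratio 2.12, SE 0.41, adjusted p = 0.0456). TCONS_00008533, in LOC412436, took 45.6%, 41.7% and 43.0% in DT_5d, against 22.7%, 24.7% and 14.3% in C_5d (log2 ratio 1.06, SE 0.21, adjusted p = 0.0456). Shares did not overlap for either, but the count was 0 with a pseudocount of 0.01, without filter and with the replicate number as a block, and also without any 1 of the DT_5d libraries, C_5d replicate 1, C_1d replicate 2, C_10d replicate 3 or any DT_10d library. At 1 d the ratio was called for 0 transcripts, against 0% of assembled lncRNAs listed under genes, with 11 by the unadjusted criterion.

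Of the 42 hosts with several of the 281 transcripts, the same transcript was highest in all 17 libraries in 7, and the order changed between libraries in 35. LOC113218900 (linkage group 7, positions 7424450 to 7427073) held 5, TCONS_00043203 to TCONS_00043207, which together made 97.1% to 100% of the gene. Summed, they had 22.9 ± 6.70 FPKM in DT_10d, against 4.40 ± 1.11 in DT_1d (SD, n = 3 and 2), and 15.8 ± 4.70 in DT_10d, against 6.72 ± 1.21 in DT_1d, after scaling. These sums were not tested. Control libraries of 5 d held 25.9 ± 26.6 FPKM (SD, n = 3), of which C_5d replicate 3 had 56.5 and the others 8.61 and 12.6. LOC409422, on linkage group 3, also held 5, which together made 24.9% to 44.5% of the gene. TCONS_00017233 and TCONS_00017237 of this host were low in DT_5d replicate 2, at 0.0031 and 0.0188 FPKM, with at least 2.13 FPKM in every other library.

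Grd was among the 8 hosts with 3 transcripts, and was picked from them after the values were seen. Its 4 assembled lncRNAs together took 43.9 ± 0.991% of the gene in DT_5d, against 27.5 ± 4.08% in C_5d, 22.2 ± 6.06% in DT_10d, against 22.6 ± 1.4% in C_10d, and 24.6 ± 3.87% in DT_1d, against 17.9 ± 5.07% in C_1d (SD, n = 3, and 2 in DT_1d). DT_5d lay highest. The sums were not tested.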

How the data were processed

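RNA from pooled bee brains was sequenced, and the authors used Hisat2 for alignment (Amel_HAv3.1) and StringTie for assembly. Transcripts were merged by Cuffmerge, classed by Cuffcompare and kept as lncRNAs where coding-potential filters found none. The deposited unit is FPKM, which the authors obtained from Cuffdiff. The option of library normalization and read counts behind each FPKM are not given in the sources used here, so depth per value is unknown and precision is the spread between libraries. Host positions come from the RefSeq annotation of the same assembly (9935 of 9939 genes matched). That table holds no gene descriptions, so a planned grouping of hosts by description was not done.

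Samples were grouped by the labels. The 281 transcripts, the marker lists and the tests were chosen with earlier results of these data known. Levels were tested on log2(FPKM + 0.1) with limma 3.58.1 (R 4.3.3; 6 group means, eBayes with trend) for features with at least 0.1 FPKM in at least 3 libraries, with Benjamini-Hochberg adjustment over all 13727. All 17 libraries shared 1 estimate of spread. A fold change on this scale understates the change of low transcripts. Ratios, log2((lncRNA + 0.1)/(host + 0.1)), were tested likewise over 2385 assembled lncRNAs listed under genes. The threshold was an adjusted p under 0.05 and a log2 difference beyond 1, and the fits were tested on simulated data. The unadjusted criterion uses the same fold limit. Counts by it, and counts with a library left out, were made for the members only. So were counts with another pseudocount, filter, block or denominator, and with quantile normalization. Without the share over all features, all these counts do not set the members apart from other features. Scaling divided by median ratios over 9142 genes above 0 in every library. Tables and figures used Python 3.11.15, pandas 2.3.3 and matplotlib 3.10.9.

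Named transcripts are the 10 with the highest mean, for each comparison up to 3 called increases and 3 decreases with a higher group mean of at least 1 FPKM, those next to the limit, and those of hosts with the most transcripts. Others are said to be chosen after seeing values. Alternatives were pseudocounts of 1 and 0.01, no filter, median-ratio scaling, quantile normalization, the replicate number as a block, another denominator and leaving out each library. Of 8 pairs of DT and C libraries of equal number, 2 correlated above 0.1 in their deviations from group means (r -0.04 to 0.15). With 2 or 3 libraries in a group these deviations constrain each other, so they cannot decide whether libraries were paired. The main fits used no pairing. Sequences were not used here. Transcript positions were used only as the loci that the supplementary material of the study gives for TCONS_00024915, TCONS_00023619 and TCONS_00023620.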

Additional observations from a re-analysis of the deposited data

How the results depend on the processing

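Of 67 alternatives to the counts of called transcripts, leaving libraries in, 45 kept the count within 1.5 times and 22 did not; the cause was not tested. In level, the count for DT_5d against C_5d (0) was 2 with the replicate block, 4 with median-ratio scaling and 2 with quantile normalization. For DT_10d against C_10d (4) it was 7 with a pseudocount of 1. For C_10d against C_1d (2) it was 1 with a pseudocount of 1, 0 without filter and 6 with either scaling. For DT_10d against DT_1d (139) it was 57 with median-ratio scaling and 48 with quantile normalization, and for the interaction (0) 1 with a pseudocount of 0.01 and 1 with median-ratio scaling. In ratio, the count for DT_5d against C_5d (2) was 1 with a pseudocount of 1 and 0 with a pseudocount of 0.01, without filter or with the replicate block. For DT_10d against C_10d (1) it was 0 with a pseudocount of 1, and for C_10d against C_1d (1) it was 0 with a pseudocount of 1 or the replicate block. For DT_10d against DT_1d (10) it was 20 with a pseudocount of 1, 5 with the replicate block and 19 with the host less its lncRNAs as denominator.

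The replicate numbers mark no shared cage or day in the labels, so the block is a check only. It gave 134 for DT_10d against DT_1d, 5 for DT_10d against C_10d and 3 for C_10d against C_1d in level. Among all alternatives, the share over all features was computed for median-ratio scaling only.

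Leaving out each library in turn, counts in level ran from 0 to 1 (DT_1d against C_1d), 0 to 64 (DT_5d against C_5d), 0 to 10 (DT_10d against C_10d), 0 to 1 (all ages), 0 to 40 (C_10d against C_1d), 12 to 149 (DT_10d against DT_1d) and 0 to 2 (interaction). In ratio they ran from 0 to 4 (1 d), 0 to 4 (5 d), 0 to 3 (10 d), 0 to 12 (C_10d against C_1d, 12 without C_1d replicate 1) and 1 to 16 (DT_10d against DT_1d, 1 without DT_1d replicate 2, and 4 or 5 without a DT_10d library). For 22 single results of named transcripts, 364 of 496 alternatives kept the call, 132 lost it and 0 reversed the direction. Of these results, 2 were of TCONS_00068689 and 1 of TCONS_00080081, which reached the limit through a group of the comparison. The depth behind an FPKM is unknown, and a value of 0 can be a failed estimate.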
